A study of Homo sapiens with 4 samples.

Results

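Epithelial-mesenchymal transition (EMT) is the program by which cells give up epithelial junctions and take on a migratory, matrix-producing state. It is driven by a small set of transcription factors: the zinc finger proteins SNAI1 (Snail) and SNAI2 (Slug), the basic helix-loop-helix (bHLH) proteins TWIST1 and TWIST2, the zinc finger and homeobox proteins ZEB1 and ZEB2, and the homeobox protein PRRX1. SNAIL and ZEB proteins bind a DNA hexamer called the E-box and repress *CDH1*, which encodes E-cadherin, the main adhesion protein of epithelia. *CDH2* (N-cadherin) and *CDH11* (OB-cadherin) encode the cadherins of neural and mesenchymal cells, and glioblastoma cells have no epithelial origin, so in them these factors are studied as drivers of a mesenchymal, invasive state. The 7 factors and 3 cadherins were taken as a fixed list of 10 genes out of the 57905 in the count tables, and all 10 were present.

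The RNA came from U87MG, an established human glioblastoma line, described in the labels as wild type and at passage 8-10. In the treated group, 2 samples received 50 nM chaetocin, a fungal metabolite that inhibits histone methyltransferases such as SUV39H1, for 24 h, and the 2 samples of the control group were left untreated. Chaetocin was dissolved in DMSO, so its effect and that of the solvent cannot be told apart. The samples of a group are described as duplicates of cells, and nothing states that they were independent cultures. The p-values therefore measure the spread between these samples, which may be technical. The libraries held between 21241984 and 32590479 counts, and levels are given as normalized CPM, read counts scaled to a common library size after correction by the TMM method. A gene with 3 reads stood at 0.0844 to 0.138 CPM, depending on the library, a floor for counting error only. Of the astroglial markers, *AQP4* had 0 reads in all 4 samples, *S100B* and *SOX2* had 0 reads in both control samples, and *GFAP* had between 10 and 25 reads per sample. *OLIG2* had between 39 and 65 reads, and *NES*, the nestin gene of neural progenitors and glioma cells, was at 44.7 and 40.2 CPM in the control and 33.6 and 25.1 CPM in the chaetocin samples.

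The letters that these factors read can be shown on the promoters of the genes themselves. RefSeq promoter windows on GRCh38.p14 were at hand for 5 of the 10 genes, *PRRX1*, *ZEB1*, *ZEB2*, *TWIST2* and *CDH2*, with 12 windows in all because *ZEB1* and *CDH2* have several starts. *SNAI1*, *SNAI2*, *TWIST1*, *CDH1* and *CDH11* had no entry. In the 250 bases before each start, the E-box of SNAIL and ZEB proteins was searched as CAGGTG and, for the other strand, CACCTG, and the TWIST E-box as CATATG, which reads the same on both strands. The first was in 2 of the 12 windows, both of *ZEB1*, against 17.5% of 35116 windows of all genes. The second was in 0 of the 12, against 2.6%. Of the 12 windows, 3 hold no exon of a protein-coding gene in GENCODE v29, and one of each gene among these is shown, *ZEB1* (chr10:31318167-31318416, plus strand) because it holds an E-box, whose first base lies 57 bases before the start, and *CDH2* (chr18:28036642-28036891, minus strand) as a window without one. They run 5′ to 3′ toward the start, with the E-box in capitals.
ZEB1: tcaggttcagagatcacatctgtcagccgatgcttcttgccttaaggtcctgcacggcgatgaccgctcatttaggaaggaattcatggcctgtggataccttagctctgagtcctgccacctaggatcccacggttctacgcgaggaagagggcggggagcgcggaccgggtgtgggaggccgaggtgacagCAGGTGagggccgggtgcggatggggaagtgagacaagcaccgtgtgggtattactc
CDH2: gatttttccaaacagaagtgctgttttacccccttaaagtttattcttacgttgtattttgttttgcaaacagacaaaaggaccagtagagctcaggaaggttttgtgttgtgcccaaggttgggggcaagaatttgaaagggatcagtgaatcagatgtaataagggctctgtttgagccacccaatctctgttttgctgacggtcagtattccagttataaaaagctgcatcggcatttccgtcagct
A match is a description of the letters and not a bound site, and no binding was measured.

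None of the 10 genes passed the threshold when chaetocin was compared with control. The comparison asked whether the factors that drive the mesenchymal state were lower along with the matrix genes. Of the 10 genes, 9 passed the filter on low counts and *TWIST2* did not. At an adjusted p under 0.05 (edgeR's quasi-likelihood test with Benjamini-Hochberg adjustment over 16416 genes), 0 of the 9 were called higher, where 1.11% of all tested genes were, and 0 were called lower, where 0.743% were (1.85% in either direction). At an unadjusted p under 0.05, *CDH1* was higher, and *CDH11*, *SNAI2* and *PRRX1* were lower, where 9.43% of all tested genes were lower and 10.9% higher at this level. *CDH1* passed the filter only through the chaetocin samples, where it was high, so its place among the tested genes is no support for a difference. DESeq2's Wald test called 0 higher, against 2.35% of the genes it tested, and 1 lower, *CDH11*, against 2.93%. The median log2 fold change, also called log2 difference, was -0.22 over the 9 genes and 0.01 over all tested genes. In 6 of the 9 genes the samples of the groups did not overlap, and over all tested genes this held for 52.7%, so that a gap between the groups was common in these libraries. From RNA of whole cultures, a lower level of a transcript per cell and a smaller share of the cells that carry it cannot be told apart.

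**Figure D1:**
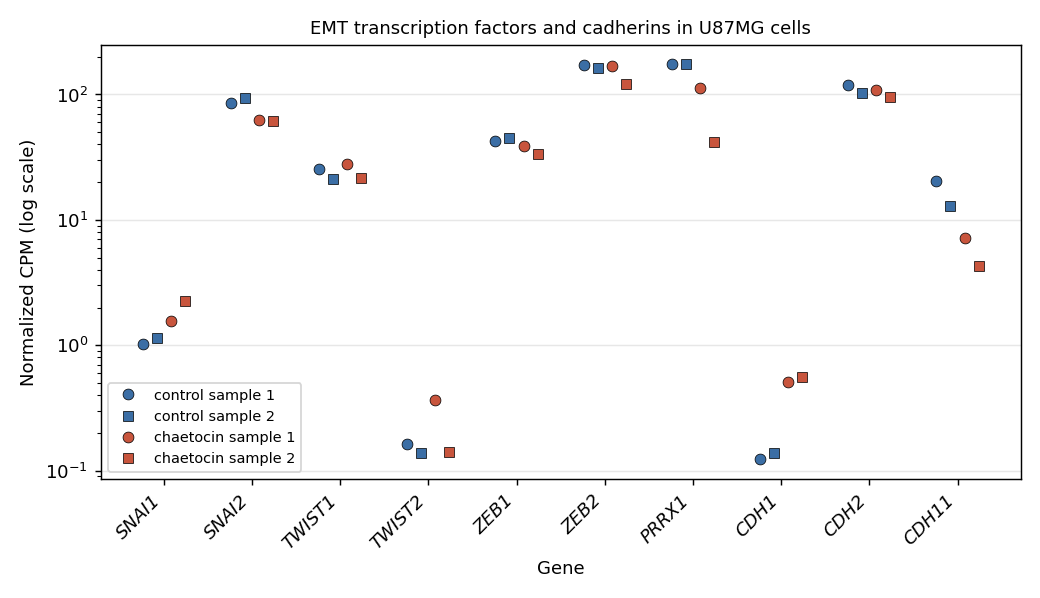
Normalized CPM on a log axis for the 10 genes on the x axis, with blue points for control and red points for chaetocin samples, circles for sample 1 and squares for sample 2. The red points of *SNAI2*, *ZEB1*, *PRRX1* and *CDH11* lie below both blue points, those of *SNAI1* and *CDH1* lie above both, and the groups of *TWIST1*, *TWIST2*, *ZEB2* and *CDH2* overlap.

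The SNAIL genes stood at different levels, and neither passed the test. *SNAI2* (ENSG00000019549, chromosome 8, 48917604 to 48921740, minus strand, 2 exon blocks; all gene positions are those of GENCODE v29 on GRCh38) was at 84.9 and 94.0 CPM in the control samples and at 62.0 and 61.1 CPM in the chaetocin samples. The chaetocin samples were close to each other and lay below both controls. Its log2 fold change was -0.54 (standard error 0.14, adjusted p = 0.0891), and the 95% interval ran from -0.86 to -0.21. It was called by edgeR without the filter on low counts (adjusted p = 0.0326) and not by DESeq2 (0.0578). Nor did edgeR call it with RLE (0.0873) or upper-quartile size factors (0.118), or with at least 10 counts required in every sample (0.1065). Without chaetocin sample 1 or 2 the log2 fold changes were -0.55 and -0.54. Without control sample 1 or 2 they were -0.62 and -0.47, and it was not called. Where a sample is left out, the lone sample of its group is assumed to vary like the other group, here and for the genes that follow. *SNAI1* (ENSG00000124216, chromosome 20, 49982999 to 49988886, plus strand) is a short-lived protein that often acts early in EMT, and its transcript was scarce. Control samples held 25 and 33 of its reads and chaetocin samples 34 and 80, or 1.02 and 1.15 CPM against 1.56 and 2.25 CPM. Both chaetocin samples were above both controls, with a log2 difference of 0.82 (SE 0.38, adjusted p = 0.269) whose interval, -0.04 to 1.69, includes 0. Per kilobase of exon, the only scale on which levels of different genes are compared here, *SNAI1* stood at 0.024 and 0.025 times the level of *SNAI2* in the control samples and at 0.051 and 0.074 times in the chaetocin samples. Exon length is that of the union of all annotated exons of a gene, from 1686 bases for *SNAI1* to 25058 for *ZEB2* among the 10 genes. It can exceed the length of any single transcript, so ratios and orders between genes depend in part on the annotation. Another family member, *SNAI3*, had 3, 10, 3 and 25 reads and was not tested.

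No difference was detectable for the TWIST genes. *TWIST1* (ENSG00000122691, chromosome 7, 19020991 to 19117672, minus strand) was at 25.4 and 21.2 CPM in the control samples and at 28.1 and 21.7 CPM with chaetocin. The groups overlapped, and within each group sample 1 was the higher one. The log2 fold change was 0.10 with an interval from -0.34 to 0.54 (adjusted p = 0.825), and without chaetocin sample 1 it was -0.10. *TWIST2* (ENSG00000233608, chromosome 2, 238848032 to 238910543, plus strand) counted 4 reads in each control and 8 and 5 in the treated samples. Summed over each group this is a ratio of 1.51 with an exact counting interval from 0.579 to 4.2, so neither a rise nor a fall was detectable at this depth. The transcripts of both genes share no stretch as long as a 50-base read. Their longest identical run has 23 bases in the GENCODE v29 transcripts.

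Neither ZEB gene passed the test. *ZEB2* (ENSG00000169554, chromosome 2, 144364364 to 144524583, minus strand) was at 170 and 163 CPM in the control samples and at 167 and 120 CPM with chaetocin. Only chaetocin sample 2 lay below the controls, and chaetocin sample 1 lay between them. *ZEB1* (ENSG00000148516, chromosome 10, 31318495 to 31529814, plus strand) was at 42.5 and 45.2 CPM in the control and at 38.9 and 33.2 CPM in the chaetocin samples, both of which were below the controls. The log2 fold changes were -0.22 for *ZEB2* (interval -0.63 to 0.20, adjusted p = 0.551) and -0.28 for *ZEB1* (interval -0.64 to 0.08, adjusted p = 0.353). Without chaetocin sample 1 the value of *ZEB2* was -0.47 and passed the test (adjusted p = 0.0252), and without chaetocin sample 2 it was -0.003. Per kilobase of exon, *ZEB1* stood at between 0.674 and 0.801 times the level of *ZEB2* in every sample, with the groups overlapping. The union of annotated exons has 8650 bases for *ZEB1* and 25058 for *ZEB2*, so the size of this ratio depends on the annotation. *ZEB1-AS1*, which runs antisense to *ZEB1* and shares 366 exonic bases with it, was at 6.56 and 5.67 CPM in the control and at 5.19 and 5.24 CPM in the chaetocin samples. Whether the counting used strand is not given in the sources used here, so reads in the shared bases cannot be assigned to one of the 2 genes. *ZEB2-AS1* shares 1299 exonic bases with *ZEB2* and had at most 2 reads in a sample.

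*PRRX1* had the largest difference among the factors and the widest spread between replicates. The gene (ENSG00000116132, chromosome 1, 170662728 to 170739419, plus strand) encodes a homeobox factor of limb and head mesenchyme. It was at 174 and 174 CPM in the control samples and at 112 and 41.8 CPM in the chaetocin samples. The control samples were nearly equal, and the chaetocin samples lay below them but differed from each other by 1.42 on the log2 scale. The log2 fold change was -1.18 (standard error 0.40, adjusted p = 0.169), with an interval from -2.13 to -0.23. Its size rested on which chaetocin sample was used. It was -0.64 without chaetocin sample 2 (adjusted p = 0.0122) and -2.05 without chaetocin sample 1 (adjusted p = 1.05e-06), and it was called without control sample 1 (adjusted p = 0.00579) but not without control sample 2 (0.636), at log2 fold changes of -1.19 in both. Relative to *TWIST1* in the same sample, *PRRX1* per kilobase of exon stood at 1.69 and 2.02 in the control samples and at 0.983 and 0.475 in the chaetocin samples. Its paralog *PRRX2* had at most 5 reads in a sample.

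**Figure D2:**
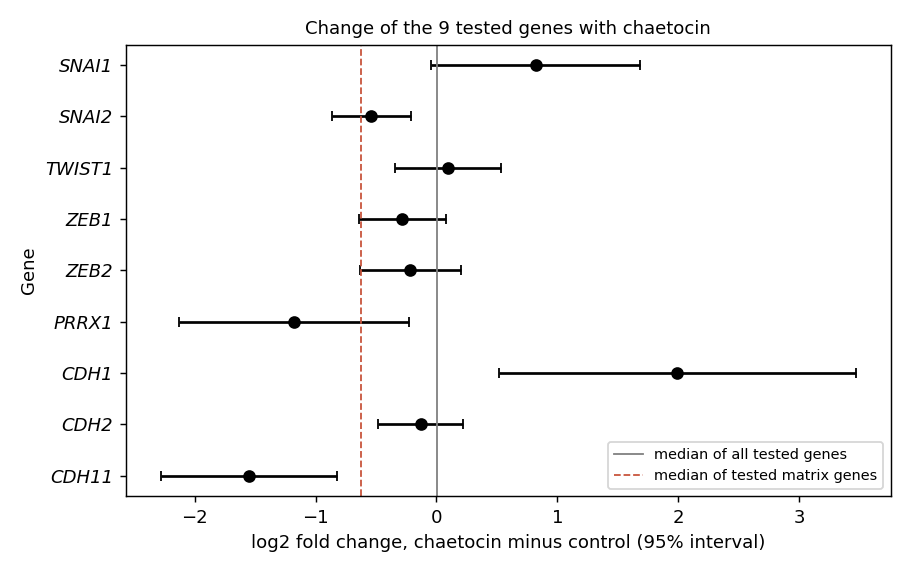
The log2 fold change of chaetocin minus control on the x axis for the 9 tested genes, with bars for the 95% interval, a grey line at the median of all tested genes (0.01) and a dashed line at the median of the tested matrix genes (-0.63). The bars of *SNAI2*, *PRRX1* and *CDH11* lie below 0, that of *CDH1* lies above 0, and the other 5 cross it.

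Among the cadherins, the mesenchymal *CDH11* had the lowest p-value of the 10 genes and the groups overlapped for *CDH2*. *CDH11* (ENSG00000140937, chromosome 16, 64943753 to 65126112, minus strand), a cadherin of mesenchymal cells and osteoblasts, was at 20.5 and 12.9 CPM in the control samples and at 7.22 and 4.28 CPM with chaetocin. Both chaetocin samples were below both controls, and the controls also differed from each other by 0.67 on the log2 scale. The log2 fold change was -1.55 (standard error 0.32), with an interval from -2.28 to -0.82. Its adjusted p of 0.0514 lay just above the threshold, and 0.384% of all tested genes had a lower log2 fold change. It was called by DESeq2 (adjusted p = 0.000284) and by edgeR without a filter on low counts (adjusted p = 2.69e-08). With edgeR it was not called with RLE size factors (adjusted p = 0.0534) or upper-quartile size factors (0.0588). Nor was it called with at least 10 counts required in every sample (0.0628). The log2 fold changes were -1.86, -1.96 and -1.22 when control sample 2, chaetocin sample 1 or chaetocin sample 2 was left out. Without control sample 1 the value was -1.19, and the gene was not called.

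*CDH2* (ENSG00000170558, chromosome 18, 27950966 to 28177446, minus strand) was at 120 and 104 CPM in the control samples and at 109 and 95.4 CPM with chaetocin, and the groups overlapped. The log2 fold change was -0.13 with an interval from -0.48 to 0.22 (adjusted p = 0.681). Within a sample and per kilobase of exon, *CDH11* stood at 0.063 and 0.046 times the level of *CDH2* in the control samples and at 0.025 and 0.017 times in the chaetocin samples. The 2 chaetocin ratios were below both control ratios, and the difference between the changes of *CDH11* and *CDH2* was not tested. An antisense gene that shares 136 exonic bases with *CDH2* had 0 reads in both controls and 8 and 1 reads with chaetocin.

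*CDH1* was close to the limit of detection. The gene (ENSG00000039068, chromosome 16, 68737225 to 68835548, plus strand) counted 3 and 4 reads in control and 11 and 20 in treated samples, or 0.12 and 0.14 CPM against 0.51 and 0.56 CPM. Both chaetocin samples were above both controls, with 31 reads against 7 in all, a ratio of 4.11 with an exact counting interval from 1.77 to 11.1. The log2 fold change of 1.99 (standard error 0.64) had an adjusted p of 0.139. Per kilobase of exon, *CDH1* with chaetocin stood at 0.0037 and 0.0047 times the level of *CDH2* in the same sample, so that mRNA of N-cadherin was the more abundant. Of the 50-base stretches of the *CDH1* transcripts, 4.14% also occur in transcripts of other genes, and with so few reads their part in the counts was not tested. Other scarce genes also had more reads with chaetocin, among them the leukocyte markers *ITGAM* (0 and 1 reads against 24 and 29) and *PTPRC* (0 and 1 against 15 and 27), which were called as higher, *PTPRC* not with DESeq2 (adjusted p = 0.0553) or without control sample 1 (0.0964). Both passed the filter only through the chaetocin samples, so a gene this scarce could be tested only if it was high there. The leukocyte list summed to 0.492 and 0.592 CPM in the control and 2.62 and 3.07 CPM in the chaetocin samples, with *CD3E* at 0 in all samples, and the part of such low-level signal in the *CDH1* counts was not tested.

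**Figure D3:**
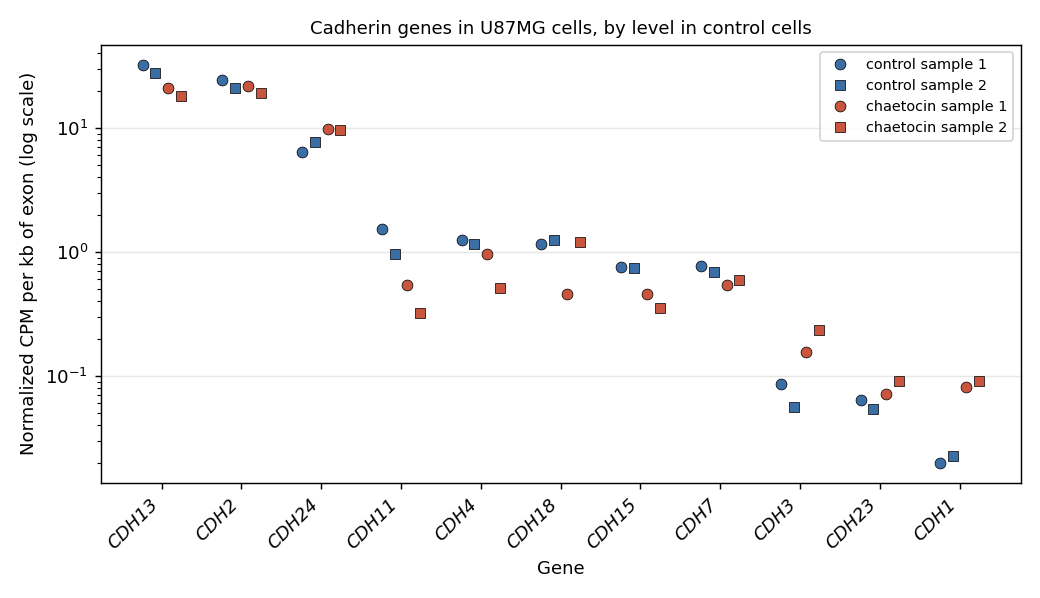
Normalized CPM per kilobase of exon on a log axis for the 10 most abundant cadherin genes in control cells and *CDH1*, with blue points for control and red points for chaetocin samples, circles for sample 1 and squares for sample 2. *CDH13* and *CDH2* lie highest, the red points of *CDH13*, *CDH11*, *CDH4*, *CDH15* and *CDH7* lie below the blue ones, and those of *CDH24*, *CDH3*, *CDH23* and *CDH1* lie above them.

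Ordered by level per kilobase of exon in control cells, the 10 genes ran from *SNAI2* (25.04 and 27.7) through *CDH2* (24.2 and 20.9), *PRRX1* (21.1 and 21.0), *TWIST1* (12.5 and 10.4), *ZEB2* (6.80 and 6.53) and *ZEB1* (4.91 and 5.23) to *CDH11* (1.53 and 0.962), *SNAI1* (0.608 and 0.681), *TWIST2* (0.087 and 0.074) and *CDH1* (0.020 and 0.023). The control samples of *CDH2* and *PRRX1* overlapped, and those of the other neighbours in this order did not. With chaetocin, *CDH2* (21.9 and 19.3) came first and *SNAI2* (18.3 and 18.0) second, *TWIST1* (13.8 and 10.7) came before *PRRX1* (13.6 and 5.07), and *SNAI1* (0.927 and 1.34) stood above *CDH11* (0.539 and 0.320). The chaetocin samples of *PRRX1* overlapped those of both its neighbours, *TWIST1* and *ZEB2*, and those of *TWIST2* and *CDH1* overlapped too. The order rests on union exon lengths, such as 25058 bases for *ZEB2*, 13381 for *CDH11* and 3392 for *SNAI2*, and can differ from that of mRNA abundance.

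The other cadherins included the most abundant one per kilobase of exon in control cells, *CDH13*, which lay below *CDH2* in each chaetocin sample. *CDH13*, a cadherin anchored to the membrane by a lipid and without a cytoplasmic tail, was at 336 ± 38.2 CPM (SD, n = 2) in control and 219 ± 23.6 CPM (SD, n = 2) in chaetocin-treated cells. Of 20 further cadherin genes, 8 were tested and 0 were called by edgeR's quasi-likelihood test, where 1.85% of all tested genes were. At an unadjusted p under 0.05, 2 were higher and 3 were lower, against 10.9% and 9.43% of all tested genes. The adjusted p was 0.0969 for *CDH13* (log2 fold change -0.62) and 0.151 for the muscle cadherin *CDH15* (-0.90). *CDH3*, the P-cadherin gene of epithelia, had 13 and 10 reads in control and 21 and 52 reads in chaetocin samples (log2 fold change 1.48, adjusted p = 0.152), and *CDH24* had a log2 difference of 0.45 (adjusted p = 0.180). Control sample 2 fell below the level of the filter for *CDH3*, so the controls alone would not have passed it. Like *CDH1*, the gene could be tested only because it was high with chaetocin, which leaves *CDH24* of the 2 higher genes.

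Among the proteins that cadherins bind or sit beside, *NECTIN3* fell, and *NECTIN4* was called higher from few reads. Nectins are immunoglobulin-like adhesion proteins of the adherens junction. *NECTIN3* was at 71.9 ± 1.39 CPM in control and 41.0 ± 5.92 CPM in treated cells (SD, n = 2 each) and differed by -0.81 ± 0.16 (SE) on the log2 scale (adjusted p = 0.0466). That call was lost with upper-quartile size factors (adjusted p = 0.0567), with at least 10 counts required in every sample (0.0595) and when control sample 1 (0.142) or control sample 2 (0.0871) was left out. *NECTIN4*, mostly an epithelial nectin, had 6 and 4 reads in the control and 32 and 57 reads in the chaetocin samples (adjusted p = 0.0382). Like *CDH1*, it passed the filter on low counts only through the chaetocin samples, so it could be tested only because it was high there. Of the 18 catenin and adherens junction genes, 17 were tested, 1 was called higher and 1 lower, against 1.11% and 0.743% of all tested genes, and the median log2 fold change was -0.16. At an unadjusted p under 0.05, 3 were higher and 5 were lower, against 10.9% and 9.43%. Of the 3, *NECTIN4* and *JUP*, the plakoglobin gene with 3 and 4 reads in control and 8 and 21 in treated samples, passed the filter only through the chaetocin samples, which leaves *ARVCF*. *JUP* and *ARVCF* were chosen after their values were seen. *ADAM10*, the protease that sheds the extracellular part of N-cadherin and E-cadherin, had a log2 difference of -0.69 (adjusted p = 0.0559), and *VCL*, which encodes vinculin, one of -0.62 (adjusted p = 0.0816). *CTNNB1*, the gene of beta-catenin, chosen after its values were seen, was at 701 and 713 CPM in the control and 531 and 658 CPM in the chaetocin samples (adjusted p = 0.481).

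The partners of the factors were mostly without a call. TWIST proteins bind DNA together with the E proteins TCF3, TCF4 and TCF12, and ID proteins hold those partners away from DNA. Of these 7 genes, all tested, 0 were called by edgeR, where 1.85% of all tested genes were. At an unadjusted p under 0.05, 0 were higher or lower, against 10.9% and 9.43% of all tested genes. With 7 genes these counts say little. The median log2 fold change was 0.07. *TCF12*, *TCF4* and *TCF3* lay below both controls in each chaetocin sample, with log2 fold changes of -0.27, -0.24 and -0.18 (adjusted p between 0.352 and 0.548), and the inhibitor *ID3* had one of 0.35 with overlapping groups. The groups did not overlap for 42.9% of these 7 genes, all lower, against 52.7% of all tested genes, with 26.0% lower. Among 17 corepressors that SNAIL and ZEB proteins recruit, 1 was called, as higher, against 1.11% of all tested genes. *EZH2*, the methyltransferase of the Polycomb complex, rose, with 66.2 ± 4.58 CPM in control and 112 ± 8.71 CPM in treated cells (SD, n = 2 each), by 0.76 ± 0.15 (SE) on the log2 scale (adjusted p = 0.0466), and the call was lost without control sample 1 (0.345) or control sample 2 (0.134). The LIM protein gene *AJUBA* and the CtBP genes *CTBP1* and *CTBP2* had log2 fold changes of -0.49, -0.37 and -0.37 (adjusted p between 0.174 and 0.269). *SUV39H1*, chosen after its values were seen because SNAI1 recruits its product to *CDH1* and chaetocin is described as inhibiting it, was at 10.9 and 10.2 CPM in the control and at 11.6 and 11.1 CPM in the chaetocin samples.

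Genes that control the stability of SNAIL, TWIST and ZEB proteins centred on 0, with a median log2 fold change of 0.02. Of these 16 genes, 0 were called by edgeR, where 1.85% of all tested genes were. The ubiquitin ligase genes *FBXO45* and *FBXO11* had values of 0.37 and -0.32, *FBXW7* one of 0.29 and *COPS2*, a subunit of the COP9 signalosome, one of -0.17 (adjusted p between 0.238 and 0.534). At an unadjusted p under 0.05, 1 of the 16 was higher and 0 were lower, against the same 10.9% and 9.43%. Among other factors linked to a mesenchymal state, 8 of 12 genes were tested and 0 were called, again against 1.85% of all tested genes. At an unadjusted p under 0.05, 2 were higher and 3 lower, against 10.9% and 9.43%. *HMGA2*, a chromatin protein that activates *SNAI1*, was at 358 ± 17.9 CPM in control and 192 ± 79.8 CPM in chaetocin-treated cells (SD, n = 2 each, adjusted p = 0.113). *SOX9* had a log2 difference of -0.61 (adjusted p = 0.165), whereas *SOX4* had one of 0.97 (adjusted p = 0.125).

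On the lists of epithelial junction genes and epithelial factors, edgeR called no gene, where it called 1.85% of all tested genes. Of 27 junction and keratin genes, 14 had enough reads to be tested and 0 were called, with 8 above 0 and 6 below 0 (42.9%, against 49.1% of all tested genes). At an unadjusted p under 0.05, 2 were higher and 3 were lower (21.4%), against 10.9% and 9.43%. *DSG2*, which encodes a desmosomal cadherin and is also expressed outside epithelia, had a log2 difference of -0.83 (adjusted p = 0.0518). The tight junction gene *TJP1* had a value of -0.40 (adjusted p = 0.200), and the claudin gene *CLDN4*, at 1.56 CPM in control cells, one of 1.04 (adjusted p = 0.131). *KRT5*, *KRT14* and *MAL2* had 0 reads in all samples. Of 15 epithelial transcription and splicing factors, 7 were tested and 0 were called, with 2 higher and 1 lower at an unadjusted p under 0.05, against 10.9% and 9.43% of all tested genes. *EHF* had 7 and 6 reads in the control and 32 and 34 in the chaetocin samples (adjusted p = 0.0732), with the same limit from the filter as *CDH1*, and *KLF4* had a log2 difference of -1.13 (adjusted p = 0.104). *TP63* and *KLF5* had values of 0.97 and 0.49 (adjusted p = 0.200 and 0.250).

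**Figure D4:**
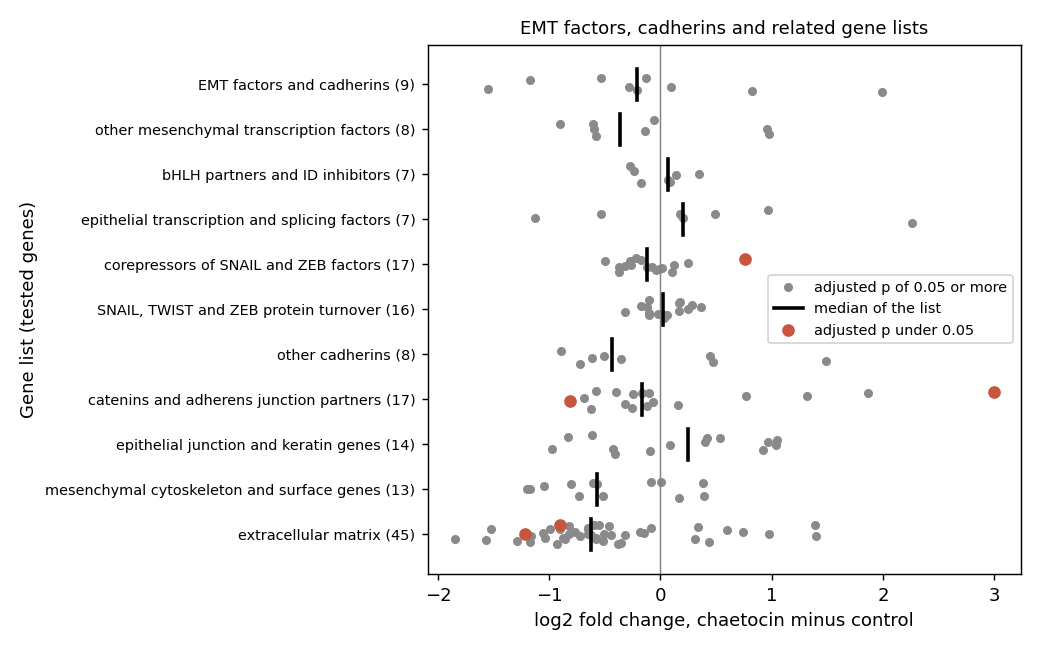
Log2 fold change of chaetocin minus control on the x axis for the tested genes of each list other than the cell type markers, which are not drawn, with red points for an adjusted p under 0.05, grey points for the others and a black bar at the median of the list. The medians of the matrix list (-0.63) and of the mesenchymal cytoskeleton and surface list (-0.57) lie furthest below 0 among the lists drawn, and the points of the EMT factors and cadherins lie on both sides of 0.

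The matrix genes stood mostly below 0. Of 49 extracellular matrix genes, 45 were tested, and 37 (82.2%) had a log2 fold change below 0, where 49.1% of all tested genes did, with a median of -0.63. At an unadjusted p under 0.05, 24 were lower and 3 higher, against 9.43% and 10.9%. The 3 were *COL4A2*, *FBLN5* and *SPP1*, with log2 fold changes of 0.97, 1.40 and 0.60 (adjusted p between 0.0955 and 0.190). Both chaetocin samples were below both controls in 27 of the 45, or 60.0%, where 26.0% of all tested genes showed this. Both were above in 6, or 13.3%, against 26.8%. Among the 6 tested factors, 4 were below 0, with a median of -0.25, and 3 had both chaetocin samples below both controls. The difference between the factors and the matrix genes was not tested. Of the matrix genes, 2 fell at an adjusted p under 0.05, where 0.743% of all tested genes were called lower. The count was 15 with DESeq2, 21 without the filter on low counts and between 5 and 23 with a sample left out. The calls over all genes moved as well, to 481 lower (2.93%) with DESeq2, to 759 (2.39%) without the filter and to between 97 and 1673 with a sample left out. The 2 matrix genes called in the main comparison were *MMP14*, the membrane-bound collagenase (log2 fold change -1.22, adjusted p = 0.0279), and *VCAN*, the proteoglycan versican (-0.90, adjusted p = 0.0399). The call of *VCAN* was lost without control sample 1 or control sample 2, at log2 fold changes of -0.89 and -0.93. *COL6A3*, a collagen VI chain, and *LAMC1*, a laminin chain, had log2 fold changes of -1.29 and -0.82 (adjusted p = 0.0506 and 0.0522).

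The control samples also differed from each other in the matrix genes. The median of control sample 2 minus control sample 1 was -0.27 over the matrix list and -0.0018 over the 9 tested factors and cadherins, on the log2 scale. Against the control mean, chaetocin samples 1 and 2 had matrix medians of -0.58 and -0.86, and the median of the 9 genes was -0.04 and -0.40. Of 14 mesenchymal cytoskeleton and surface genes, 13 were tested and 0 were called, where 1.85% of all tested genes were. At an unadjusted p under 0.05, 0 were higher and 7 lower (53.8%), against 10.9% and 9.43% of all tested genes. Of the 13, 9 were below 0 and 4 above. *ACTA2* and *TAGLN*, with log2 fold changes of 0.39 each (adjusted p = 0.325 and 0.541), had both chaetocin samples above both controls, as had 26.8% of all tested genes. *VIM*, the intermediate filament gene that is the usual mesenchymal marker, was at 2533 ± 373 CPM in control and 1452 ± 429 CPM in chaetocin-treated cells (SD, n = 2 each, adjusted p = 0.134). *ITGA5* and *CD44*, cell surface receptors of fibronectin and hyaluronan, had log2 fold changes of -1.17 and -1.20 (adjusted p = 0.0514 and 0.0699), and *CALD1*, the gene of an actin-binding protein, one of -0.52 (adjusted p = 0.140). Among fibroblast markers, *PDGFRB* fell, with 63.8 ± 20.4 CPM in control and 20.3 ± 4.44 CPM in treated cells (SD, n = 2 each, adjusted p = 0.0306), and it was not called without chaetocin sample 2 (adjusted p = 0.0538). The 6 fibroblast markers summed to 822 and 561 CPM in the control and to 578 and 273 CPM in the chaetocin samples. Most of this was *COL1A1*, which is also on the matrix list, at 707 and 466 CPM against 523 and 226 CPM, with overlapping groups (adjusted p = 0.385). The part of these markers in the lower levels of *CDH11* and *PRRX1* was not tested.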

How the data were processed

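Polyadenylated RNA from 2 control and 2 chaetocin samples was sequenced as single reads. The authors deposited raw read counts per gene, 1 table per sample, in which no normalization was applied. Per the labels, the submitters' processing notes name cutadapt, TopHat and SAMtools with GRCh37, and the counting tool, annotation and strand setting are not given in the sources used here. Genes were joined by Ensembl ID to GENCODE v29 (GRCh38) for positions and exon lengths (the union of a gene's annotated exons), so lengths can differ from those counted.

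Genes with low counts were removed with filterByExpr, which left 16416 of 57905. Counts were normalized by TMM and compared with the robust quasi-likelihood test of edgeR 4.0.16 in R 4.3.3, without a replicate term and with Benjamini-Hochberg adjustment at 0.05, after tests on simulated data. Alternatives included other size factors, other filters, DESeq2 1.42.0 and leaving out each sample. Intervals of read ratios are exact and cover counting error only. From each list the text names the called genes and then those with the lowest p until 4 are named, and some genes that this rule selects are not reported here. The 10 genes and all lists were chosen with earlier results of these data known. Groups of 2 samples are too small for a test of outlying samples.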

Additional observations from a re-analysis of the deposited data

How the results depend on the processing

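Over all genes, 182 were called higher and 122 lower. The counts were 787 and 759 without a filter on low counts, 114 and 80 where each sample needed 10 counts or more, 246 and 88 with upper-quartile size factors, and 385 and 481 with DESeq2, and leaving out a sample gave 215 to 1332 higher and 97 to 1673 lower. Of the 10 EMT factors and cadherins, 2 were called lower without the filter, 1 with DESeq2 and 1 to 4 when a sample was left out, and 0 were called higher under any alternative run. The matrix list had 2 genes called lower, 21 without the filter, 15 with DESeq2 and 5 to 23 with a sample left out. The median over the EMT factors and cadherins ran from -0.40 without chaetocin sample 1 to -0.049 without chaetocin sample 2. *TWIST1* ran from -0.10 to 0.27 with a sample left out, at -0.04 without control sample 2 and -0.10 without chaetocin sample 1. With a replicate block, 1036 genes were called higher and 1053 lower, among them 2 of the EMT factors and cadherins (*CDH11* and *SNAI2*) and 27 matrix genes lower. The replicate numbers are only numbers here, since nothing ties equal numbers to a shared culture or day and the differences of equally numbered samples correlated across genes with r = 0.123. The calls of *NECTIN3*, *EZH2*, *VCAN* and *PDGFRB* were followed under the same alternatives after the data were seen. *TWIST2*, below the filter, had a log2 fold change of 0.66 (edgeR, adjusted p = 0.796) without it. *CDH1* and *TWIST2* rest on few reads, so depth limits what can be said of them, and with 2 samples a group the spread is poorly known.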
